A study of Mus musculus with 8 samples.

Results

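The genes described here are 10 genes of the visceral endoderm programme, chosen by symbol from the count tables of the study: Afp, Ttr, Apoa1, Apob, Apoe, Apom, Rbp4, Trf, Amn and Cubn. All 10 were present among the 24421 gene symbols counted. Between undifferentiated cells (Undiff) and retinoic acid-treated cells (Day4), Ttr, Apoa1 and Rbp4 had none or few reads in Undiff and more at Day4 with both kits, Afp went from 0 reads to 28 and 33 in Direct RNA and to 3 and 31 in cDNA, where it was not called, and reads of Apoe fell. Genes with a mean normalised count of at least 5 were assessed. With Oxford Nanopore Technologies (ONT) Direct RNA libraries 4 of the 6 members assessed were called higher and 1 lower, where 9.54% and 7.67% of all genes assessed were. With ONT cDNA libraries 2 of the 7 members assessed were called higher and 1 lower, where 8.69% and 9.24% of all genes assessed were. Members without Undiff reads could be assessed only through Day4, so these counts are no evidence about the 10. Ttr and Rbp4 rose, and Apoe fell, with both kits. Apob, Apom, Trf, Amn and Cubn had few reads in any library.

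The visceral endoderm is the epithelium that wraps the early mouse embryo and feeds it before the placenta works. Like the liver later on, it secretes carriers of lipid, retinol, thyroid hormone and iron, and it takes up maternal proteins through a large receptor made of cubilin and amnionless. Embryoid bodies, aggregates of embryonic stem cells, form such an endoderm on their surface, and alpha-fetoprotein and transthyretin are classical markers of it. Of the members, 8 encode secreted plasma proteins, while Amn and Cubn encode the uptake receptor and are not secreted.

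R1 is a mouse embryonic stem cell line. Undiff cells were grown for 4 days in stem cell medium and harvested. Day4 cells had gone on as embryoid bodies without LIF, the factor that keeps them pluripotent, first for 4 days without retinoic acid and then for 4 days with it at 2 uM, and no group analysed here received the embryoid body step without retinoic acid. The tissue label names embryoid bodies for all libraries and the dose on the sample labels has another unit, so the state and the dose follow the series design. Each state had 2 replicates per kit, giving 8 libraries in 4 groups. Direct RNA sequencing reads native polyadenylated RNA, and cDNA sequencing reads PCR-amplified copies. All cells came from 1 line, and the p-values measure only the spread between 2 libraries a group.

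Direct RNA libraries had 283461 to 907489 reads on genes and cDNA libraries 948657 to 2088592. Levels are given as CPM (reads of a gene scaled to 1000000 reads on genes), without scaling to transcript length, so each gene is compared with itself across libraries and not with another gene. A count of 0 allows up to 3 reads, which is 3.31 to 10.6 CPM per Direct RNA library and 1.44 to 3.16 CPM per cDNA library, for counting error only. Day4 replicate 2 kept more reads of 10 pluripotency genes than Day4 replicate 1 (526 against 123 summed CPM in Direct RNA and 944 against 87.2 in cDNA, with 11405 to 24617 in the Undiff libraries). In bulk RNA of this kind, fewer cells of a type and less RNA per cell cannot be told apart.

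Promoter windows of Afp, Apoa1 and Rbp4 are shown, picked because each holds a match to a short motif known from endoderm factors. Any part of these motifs in the change of the 3 genes was not tested. The windows are RefSeq windows of 300 bases on GRCm38.p6, 250 bases before to 50 after the annotated start, written 5′ to 3′ along the gene. Capitals mark matches, on either strand, to the FOXA motif TGTTTAC or its close variant TGTTTGC, the HNF1 motif GTTAATNAT, the GATA factor motif TGATAA or its close variant AGATAA, the HNF4 motif CAAAGTCCA, and the single sites AGGTCA or, as a common variant, GGTTCA of retinoic acid response elements. The windows lie at chr5:90490464-90490763 (+ strand) for Afp, chr9:46228380-46228679 (+ strand) for Apoa1 and chr19:38125272-38125571 (− strand) for Rbp4.
Afp: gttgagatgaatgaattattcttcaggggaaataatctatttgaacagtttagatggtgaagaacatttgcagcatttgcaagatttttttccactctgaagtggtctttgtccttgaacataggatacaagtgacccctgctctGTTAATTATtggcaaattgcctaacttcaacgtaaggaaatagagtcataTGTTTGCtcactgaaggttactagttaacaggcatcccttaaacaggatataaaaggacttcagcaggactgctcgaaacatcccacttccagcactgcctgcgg
Apoa1: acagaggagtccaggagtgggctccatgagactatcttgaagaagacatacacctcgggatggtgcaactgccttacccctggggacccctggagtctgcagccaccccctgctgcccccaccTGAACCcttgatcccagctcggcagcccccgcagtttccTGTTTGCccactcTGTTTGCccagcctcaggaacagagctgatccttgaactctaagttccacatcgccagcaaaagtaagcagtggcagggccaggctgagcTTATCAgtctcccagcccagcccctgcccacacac
Rbp4: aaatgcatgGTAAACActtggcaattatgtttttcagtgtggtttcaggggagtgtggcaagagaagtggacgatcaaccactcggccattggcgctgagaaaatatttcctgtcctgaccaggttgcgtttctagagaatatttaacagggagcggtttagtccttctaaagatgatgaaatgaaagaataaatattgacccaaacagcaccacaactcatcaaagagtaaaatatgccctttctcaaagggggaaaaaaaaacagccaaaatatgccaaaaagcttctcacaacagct

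The Afp window held GTTAATNAT 105 bases before the start, a motif found in 0.801% of all 32851 windows, and TGTTTGC 55 bases before it, found in 5.07%. The Apoa1 window held TGTTTGC at 88 and at 75 bases before the start, the reverse complement of GGTTCA (10.4% of windows) at 127 bases before it, and the reverse complement of TGATAA (9.05%) just after it. The Rbp4 window shown held the reverse complement of TGTTTAC (3.65%) 241 bases before its start, and the other Rbp4 window had no match. RefSeq windows were matched by symbol for 8 members, 11 windows in all, of which 5 held at least 1 motif, against 43.7% of all windows. The Apob window also held TGTTTGC and GGTTCA, although Apob had almost no reads, and 1 of the 3 Apoe windows held TGTTTAC and GGTTCA. No member window matched AGATAA (11.2% of windows), CAAAGTCCA (0.475%) or AGGTCA (16.3%). These matches describe letters in a window and were not tested as binding sites.

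The secreted carriers that went up came first in the comparison of states. Afp (ENSMUSG00000054932, chr5:90490737-90508907, + strand, 15 exons, 2063 bases in its longest transcript) encodes alpha-fetoprotein, the albumin-like carrier of fetal plasma. It had 0 reads in all 4 Undiff libraries. At Day4 it had 28 and 33 reads in Direct RNA replicates 1 and 2 (98.8 and 44.7 CPM) and 3 and 31 reads in cDNA (2.28 and 14.9 CPM). The states did not overlap with either kit, but the cDNA replicate 1 value stood at the limit that a count of 0 allows. The Day4 mean was 71.8 ± 38.2 CPM (SD, n = 2) in Direct RNA, at least 8.34-fold higher than 3 reads in the shallower Undiff library, and 8.60 ± 8.94 CPM in cDNA, at least 2.72-fold higher, which rests on replicate 2. DESeq2 called the Direct RNA difference (log2 fold change 5.84, SE 1.17, adjusted p = 2.3e-05), though not with a replicate block (1.64, adjusted p = 0.84). In cDNA the log2 fold change was 3.90 (SE 1.4), and its adjusted p of 0.0501 from DESeq2 just missed the threshold. The Afp cDNA difference was called by edgeR (adjusted p = 6.7e-05), by DESeq2 with its default filtering (adjusted p = 0.034) and by DESeq2 on genes with at least 10 reads (adjusted p = 0.028). DESeq2 did not call it without any of the 4 cDNA libraries in turn (1.10 to 3.72, adjusted p = 0.14 to 0.97, the lowest without Day4 replicate 2) or with a replicate block (3.08, adjusted p = 0.23).

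Ttr (ENSMUSG00000061808) encodes transthyretin, which carries thyroid hormone and binds the retinol carrier made by Rbp4. It too had 0 reads in all 4 Undiff libraries. The Day4 libraries had 10 and 24 reads in Direct RNA (35.3 and 32.5 CPM) and 95 and 109 reads in cDNA (72.1 and 52.5 CPM). Every Day4 library lay above every Undiff library. The Day4 means were 33.9 ± 1.94 CPM (SD, n = 2) and 62.3 ± 13.9 CPM, at least 3.94-fold above the Undiff limit in Direct RNA and, in cDNA, at least 19.7-fold above it. DESeq2 called Ttr higher with both kits. The log2 fold change in Direct RNA was 4.79 (SE 1.25, adjusted p = 0.0023 with DESeq2), and that in cDNA was 6.88 (SE 1.16, adjusted p = 1.9e-07). The Direct RNA call was lost without Undiff replicate 2 (3.53, adjusted p = 0.27), without Day4 replicate 1 (3.80, adjusted p = 0.075) and without Day4 replicate 2 (3.91, adjusted p = 0.14), while the cDNA call held without each of the 4 cDNA libraries but was lost with a replicate block (1.75, adjusted p = 0.73 with DESeq2).

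Rbp4 (ENSMUSG00000024990, chr19:38116629-38125281, − strand, 6 exons, 1161 bases) encodes the retinol-binding protein that takes vitamin A through plasma. It was read in every library. Undiff libraries had 3 and 2 reads in Direct RNA (8.61 and 2.20 CPM) and 17 and 8 reads in cDNA (17.9 and 3.83 CPM), and Day4 libraries had 37 and 40 (131 and 54.2 CPM) and 211 and 349 (160 and 168 CPM). The lowest Day4 library was above the highest Undiff library with each kit. The mean went from 5.41 ± 4.53 to 92.4 ± 54.0 CPM (SD, n = 2) in Direct RNA, where the Undiff mean is under the limit of 3 reads and no fold is given, and rose 15.1-fold in cDNA, from 10.9 ± 9.96 to 164 ± 5.61 CPM. DESeq2 gave log2 fold changes of 3.82 (SE 0.83, adjusted p = 0.00011) and 3.53 (SE 0.60, adjusted p = 3.0e-07). The Direct RNA call was lost without Undiff replicate 2 (2.83, adjusted p = 0.16) or Day4 replicate 1 (2.71, adjusted p = 0.18). The cDNA call held without each library, at 4.82 without Undiff replicate 1, 2.66 without Undiff replicate 2 and 3.31 and 3.47 without the Day4 replicates.

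Apoa1 (ENSMUSG00000032083, chr9:46228580-46230466, + strand, 4 exons, 1035 bases) encodes the main protein of high-density lipoprotein. In Direct RNA it had 0 reads in both Undiff libraries and 16 and 39 reads at Day4 (56.4 and 52.9 CPM). In cDNA it had 7 reads in Undiff replicate 1 (7.38 CPM), 0 in Undiff replicate 2, and 121 and 174 at Day4 (91.8 and 83.8 CPM). The states did not overlap. The Direct RNA mean at Day4 was 54.7 ± 2.52 CPM (SD, n = 2), at least 6.35-fold above the Undiff limit, and DESeq2 called it (log2 fold change 5.51, SE 1.19, adjusted p = 0.00011), though not without Undiff replicate 2 (4.2, adjusted p = 0.087). The cDNA mean was 3.69 ± 5.22 CPM in Undiff and 87.8 ± 5.68 CPM at Day4, a ratio of 23.8, but DESeq2 did not call it (log2 fold change 2.62, SE 1.48, adjusted p = 0.32). Without cDNA Undiff replicate 1, the library with the 7 reads, the value was 6.93 (adjusted p = 2.2e-06), and without cDNA Undiff replicate 2 it was 2.95 (adjusted p = 0.0084), both called by DESeq2. Without cDNA Day4 replicate 1 it was 1.23 and without cDNA Day4 replicate 2 it was 1.58 (adjusted p = 0.97 each with DESeq2), neither called. The edgeR test called it on all 4 libraries (adjusted p = 3.2e-12), as did DESeq2 with a replicate block (4.16, adjusted p = 7.2e-05). DESeq2's dispersion for Apoa1, its estimate of replicate spread, was 2.47 in cDNA and 0.311 in Direct RNA.

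**Figure D1:**
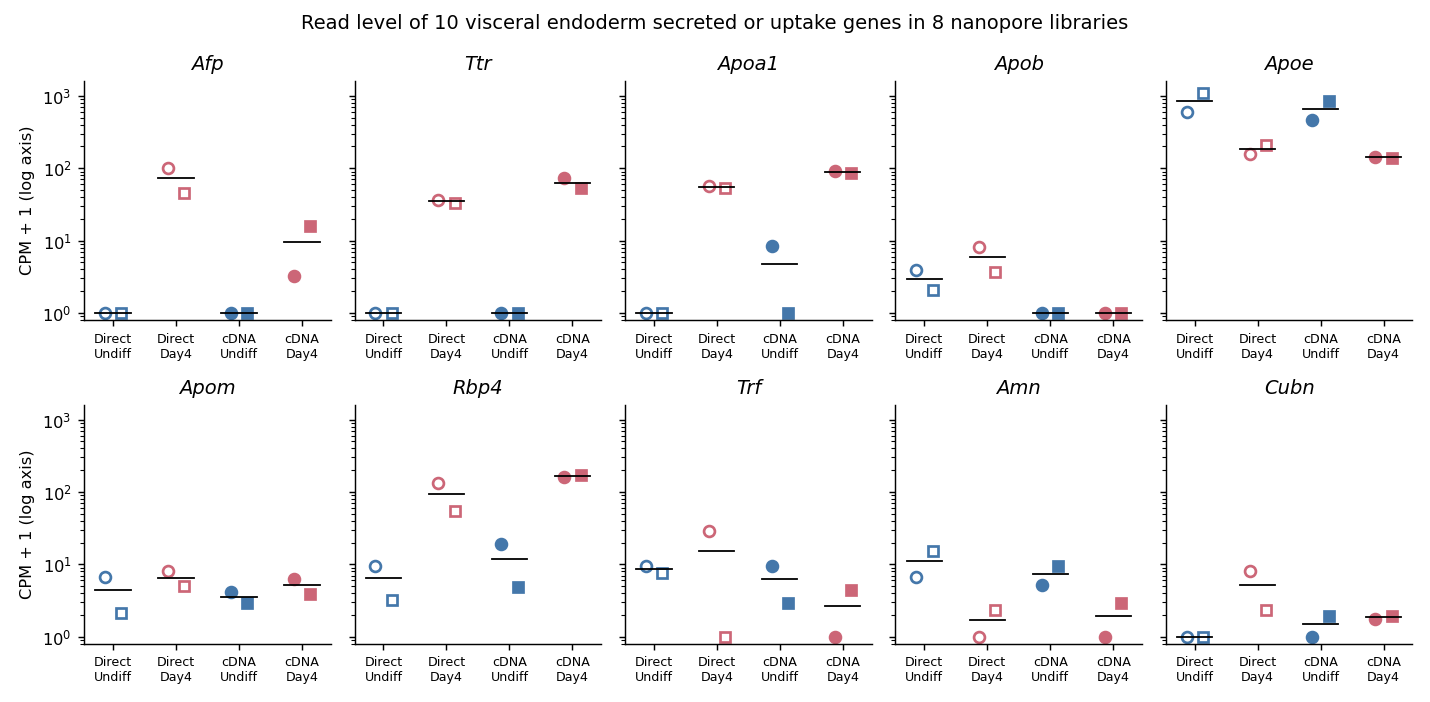
Level of each member in each library, as CPM plus 1 on a log axis, for the Direct RNA kit (open symbols) and the cDNA kit (filled symbols), with Undiff in blue, Day4 in red, replicate 1 as a circle, replicate 2 as a square and the mean of 2 as a line. Ttr, Apoa1 and Rbp4 are higher at Day4 with both kits, Afp is too except that 1 cDNA value (2.28 CPM) is within the limit of a count of 0, Apoe is lower, and the other 5 members stay below 30 CPM.

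Apoe (ENSMUSG00000002985, chr7:19696109-19699188, − strand, 4 exons, 1408 bases) encodes apolipoprotein E, a ligand for receptors that clear lipoproteins, and is made by many cell types besides endoderm. Undiff libraries had 211 and 995 reads in Direct RNA (606 and 1096 CPM) and 439 and 1795 in cDNA (463 and 859 CPM), and Day4 libraries had 44 and 152 (155 and 206 CPM) and 188 and 285 (143 and 137 CPM). All 4 Day4 libraries lay below all 4 Undiff libraries. The mean fell 4.71-fold in Direct RNA, from 851 ± 347 to 181 ± 36.0 CPM (SD, n = 2), and 4.73-fold in cDNA, from 661 ± 280 to 140 ± 3.84 CPM. DESeq2 called both (log2 fold changes −2.30, SE 0.36, adjusted p = 1.8e-08, and −2.50, SE 0.41, adjusted p = 8.3e-08). The Direct RNA call was lost without Day4 replicate 1 (−1.93, adjusted p = 0.12). Apoc1, its neighbour in the apolipoprotein cluster, named here after its values were seen, had 9 and 90 reads in Undiff and 3 and 24 at Day4 in Direct RNA, and 102 and 202 against 18 and 35 in cDNA. DESeq2 called Apoc1 lower in cDNA (−2.99, SE 0.50, adjusted p = 1.4e-07) and not in Direct RNA (−1.48, SE 0.78, adjusted p = 0.26).

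Macrophages also make apolipoprotein E, and their markers were low. The 12 macrophage markers summed to 28.7 to 48.8 CPM in Undiff and 4.07 to 17.6 CPM at Day4 in Direct RNA, and to 39.7 to 47.4 and 9.86 to 11.1 CPM in cDNA. Aif1 and Ptprc were at 0 in every library, and Cd68, a lysosomal protein gene, carried most of the Undiff sum (33.1 ± 14.1 CPM in Direct RNA Undiff and 41.0 ± 9.17 CPM in cDNA Undiff, SD, n = 2). Their part in the Apoe result was not tested.

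The share of Apoe among the members' reads differed between the states. It made up 91.8 to 98.0% of the members' reads in the 4 Undiff libraries and 29.5 to 51.5% in the 4 Day4 libraries. The other 9 members together had 25.3 and 31.6 CPM in Direct RNA Undiff and 194 and 370 CPM at Day4. In cDNA they had 17.2 and 41.1 CPM in Undiff and 328 and 332 CPM at Day4. All 10 together had 637 and 1122 CPM in Direct RNA Undiff and 526 and 400.0 CPM at Day4, and 504 and 877 CPM in cDNA Undiff and 475 and 466 CPM at Day4. Both Undiff totals were above both Day4 totals within each kit.

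**Figure D2:**
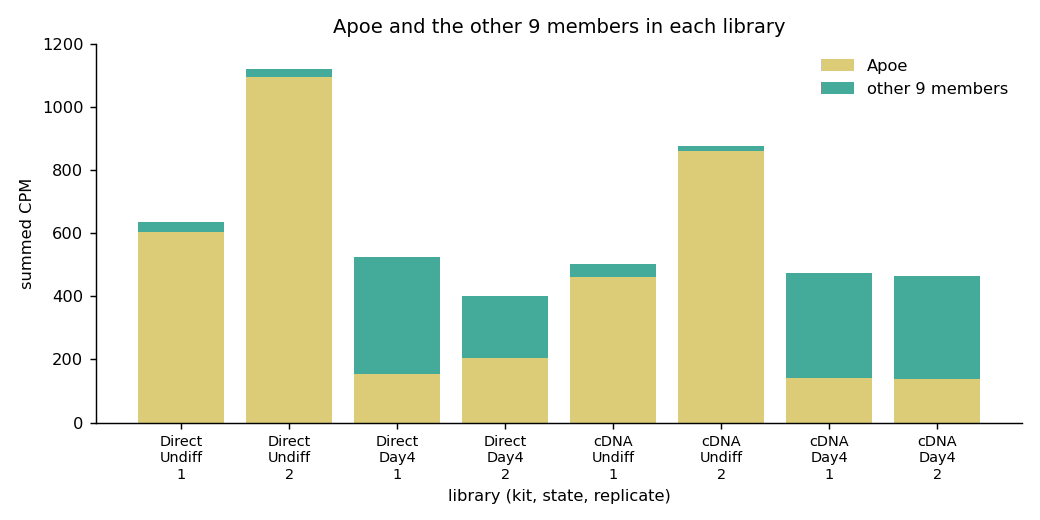
Summed CPM of Apoe (sand) and of the other 9 members (green) in each of the 8 libraries, on a linear axis from 0. The Apoe segment is 463 to 1096 CPM in the Undiff libraries and 137 to 206 CPM at Day4, while the segment of the other members goes from 17.2 to 41.1 CPM in Undiff to 194 to 370 CPM at Day4.

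The members with few reads did not pass the test. Trf (ENSMUSG00000032554) encodes transferrin, the iron carrier of plasma. It had 3 and 6 reads in Direct RNA Undiff, 8 and 0 at Day4, 8 and 4 in cDNA Undiff, and 0 and 7 at cDNA Day4. The states overlapped with each kit. For Direct RNA, DESeq2 gave 0.52 (SE 1.23, adjusted p = 0.93) and for cDNA −1.53 (SE 1.27, adjusted p = 0.61), and the Direct RNA value turned to −1.76 without Day4 replicate 1, the library with the 8 reads. Trf shares 2108 exon bases with Gm20425 on the same strand in GENCODE, and Gm20425 was not among the counted symbols.

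Amn (ENSMUSG00000021278, chr12:111271095-111276426, + strand) encodes amnionless, the membrane anchor of cubilin. It had 2 and 13 reads in Direct RNA Undiff and 0 and 1 at Day4, and 4 and 18 reads in cDNA Undiff and 0 and 4 at Day4. In cDNA both Undiff libraries were above both Day4 libraries in CPM, and in Direct RNA the limit of a count of 0 does not separate the states. In cDNA the mean was 6.42 ± 3.11 CPM (SD, n = 2) in Undiff and 0.963 ± 1.36 CPM at Day4, and DESeq2 did not call the difference (log2 fold change −2.41, SE 1.23, adjusted p = 0.24), whereas edgeR did (−2.81, adjusted p = 0.0085). In Direct RNA, Amn was below the mean normalised count of 5 needed for a call.

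Cubn (ENSMUSG00000026726) encodes cubilin, the ligand-binding part of the same receptor. It had 0 and 0 reads in Direct RNA Undiff, 2 and 1 at Day4, 0 and 2 in cDNA Undiff and 1 and 2 at cDNA Day4. Its group means were all under the limit of 3 reads, so no fold is given. Its longest transcript is 11262 bases, and 368 of its exon bases lie opposite Gm13270, which was not among the counted symbols.

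Apob (ENSMUSG00000020609, chr12:7977648-8016835, + strand) encodes the structural protein of very-low-density lipoprotein, and its longest transcript of 13934 bases was the longest of the 10. It had 1 and 1 reads in Direct RNA Undiff and 2 and 2 at Day4. In cDNA it had 0 reads of 6432754 in the 4 libraries together, which allows a level of up to 0.466 CPM. Apom (ENSMUSG00000024391) encodes the lipocalin of high-density lipoprotein that carries sphingosine 1-phosphate. It had 1 to 3 reads in each Direct RNA library, 3 and 4 in cDNA Undiff and 7 and 6 at cDNA Day4. Its CPM overlapped between states with each kit. Cubn, Apob and Apom were below the mean normalised count needed for a call with both kits.

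A gene was assessed if its mean normalised count was at least 5, and called at an adjusted p of at most 0.05 with an absolute log2 fold change of 1 or more. In Direct RNA 6 of the 10 members were assessed, of which 4 were called higher and 1 lower, out of 9646 genes assessed in all. In cDNA 7 were assessed, out of 10271 genes, of which 2 were called higher and 1 lower. Members without reads in Undiff could be assessed only through their Day4 reads, so the counts of assessed members are no evidence about the 10.

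The Direct RNA count of 4 higher fell to 1 (Afp) without Undiff replicate 2 and to 2 (Afp and Apoa1) without Day4 replicate 1, and the count of 1 lower fell to 0 without Day4 replicate 1. The cDNA counts became 4 higher and 2 lower with edgeR. Without cDNA Undiff replicate 1 or 2, the cDNA count of 2 higher became 3, with Apoa1 added.

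**Figure D3:**
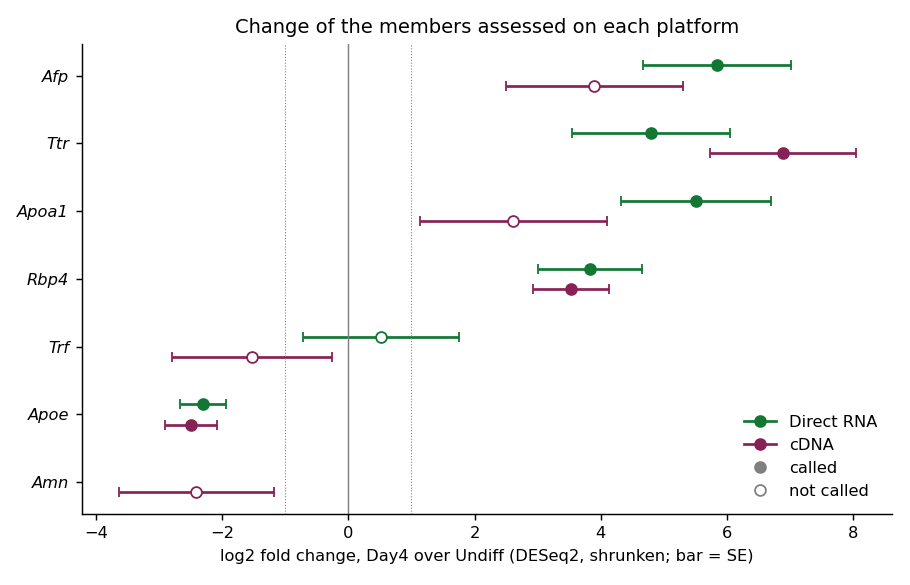
Log2 fold change of Day4 over Undiff with its SE (DESeq2, shrunken) for the members with a mean normalised count of at least 5, in Direct RNA (green) and cDNA (purple), with called values filled and dotted lines at a log2 fold change of 1 in either direction. Ttr and Rbp4 lie right of 0 and Apoe left of it on both platforms with filled symbols, Afp and Apoa1 are filled in Direct RNA only, and Amn has no Direct RNA value.

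The kits were compared in all 8 libraries with the state held in the model. The RNA of the duplicate samples went into both kits, so the 8 libraries come from 4 RNA samples, and this fit treats them as independent. DESeq2 called Ttr (1.33, SE 0.55, adjusted p = 0.044) and Rbp4 (1.61, SE 0.51, adjusted p = 0.0054) higher in cDNA and Afp lower in cDNA (−1.95, SE 0.75, adjusted p = 0.029), on the log2 scale. So 2 of the 6 members assessed were higher and 1 was lower, where 24.7% of 10426 genes were called higher in cDNA and 26.6% lower. With the RNA sample, taken from the state and replicate number, as a replicate block, DESeq2 no longer called Afp (−1.94, adjusted p = 0.065) or Ttr (1.23, adjusted p = 0.11), kept Rbp4 and called Apoa1 higher (1.39, adjusted p = 0.021). The deviations of the Day4 libraries correlate between kits at −0.42 by their numbers, and with those numbers crossed DESeq2 called Afp (−2.21, adjusted p = 0.010) and not Ttr (1.27, adjusted p = 0.11). Without a block, Apoa1 (1.51, SE 1.05, adjusted p = 0.30), Apoe (0.36, SE 0.27, adjusted p = 0.36) and Trf (−0.73, SE 0.95, adjusted p = 0.68) were not called by DESeq2. The edgeR test without a block did call Apoa1 higher in cDNA (1.61, adjusted p = 0.00031). Ttr and Rbp4 have longest transcripts of 1186 and 1161 bases and Afp of 2063. Of the members that DESeq2 did not call without a block, Apoa1 has 1035 bases, Apoe 1408 and Trf 2571. Of 1198 genes assessed with a longest transcript up to 1500 bases, 58.1% were called higher in cDNA and 9.93% lower, and of 3152 genes of 1500 to 3000 bases 26.6% and 19.6%. The part of length in the kit differences of the members was not tested.

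The kit difference of Afp was lost without Direct RNA Day4 replicate 1 (−1.18, adjusted p = 0.43), Direct RNA Day4 replicate 2 (−1.95, adjusted p = 0.094) or cDNA Day4 replicate 1 (−1.43, adjusted p = 0.16). That of Ttr was lost without Direct RNA Undiff replicate 2 (1.28, adjusted p = 0.075), Direct RNA Day4 replicate 1 (1.27, adjusted p = 0.16), Direct RNA Day4 replicate 2 (1.19, adjusted p = 0.24), cDNA Day4 replicate 1 (0.79, adjusted p = 0.53) or cDNA Day4 replicate 2 (1.37, adjusted p = 0.15). Rbp4 was called higher in cDNA whichever of the 8 libraries was left out. Apoa1 was called higher in cDNA without cDNA Undiff replicate 1 (1.29, adjusted p = 0.013) or replicate 2 (1.74, adjusted p = 0.0019). All values in this paragraph are from DESeq2.

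Whether the change from Undiff to Day4 itself differed between kits was tested as an interaction. DESeq2 called 2 of 17267 genes (0.0116%) and none of the members, and no member had an unadjusted p under 0.05 with DESeq2 or with edgeR. The difference of log2 fold changes, cDNA minus Direct RNA, was −2.0 (SE 2.45) for Afp, 1.99 (SE 2.27) for Ttr, −3.10 (SE 3.16) for Apoa1, −0.61 (SE 1.13) for Rbp4 and −0.21 (SE 0.57) for Apoe. These errors leave room for differences of several log2 units in Afp, Ttr and Apoa1, and the calls of Afp and Apoa1 in Direct RNA alone are therefore not shown to differ from cDNA.

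Related genes were counted from lists chosen for the members' roles. Rbp4 and Ttr move retinol in plasma, and the list of retinol and retinoic acid transport and storage had all 8 genes assessed called higher in Direct RNA, 7 of 9 called higher in cDNA, and none lower, beside 9.54% and 8.69% of all genes called higher. Stra6, Cyp26a1, Cyp26b1 and Aldh1a2 had 0 to 2 reads in each Undiff library and could be assessed only through Day4. So could Lrat in cDNA, with 0 reads in each Undiff library and 10 and 19 at cDNA Day4. The counts over assessed genes are therefore partly set by the filter on mean count. Cyp26b1 and Cyp26a1, which break down retinoic acid, rose by 7.54 (SE 0.91) and 6.48 (SE 1.12) in Direct RNA and by 6.90 (SE 0.97) and 5.93 (SE 1.04) in cDNA, and both were called by DESeq2 whichever library was left out, though Cyp26a1 lost its Direct RNA call with a replicate block (1.65, adjusted p = 0.84). Stra6, the membrane receptor for Rbp4, had 0 reads in Direct RNA Undiff, 7 and 39 at Day4, 0 and 1 in cDNA Undiff and 18 and 57 at cDNA Day4. DESeq2 called Stra6 higher with both kits (5.00, SE 1.24, adjusted p = 0.0011, and 4.53, SE 1.17, adjusted p = 0.0020). The Stra6 call was lost without Direct RNA Undiff replicate 2 (3.71) or Day4 replicate 2 (3.23), and without cDNA Undiff replicate 2 (4.1) or Day4 replicate 2 (3.44).

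Lipid transport genes mostly did not pass the test. Of 8 genes of lipoprotein assembly, receptors and remodelling assessed with each kit, 1 was called higher in Direct RNA, and 1 higher and 1 lower in cDNA. Lpl, the lipase that frees fatty acids from lipoproteins, rose with both kits in the DESeq2 test, by 3.61 (SE 1.21, adjusted p = 0.030) with the Direct kit and by 4.27 (SE 0.60, adjusted p = 1.6e-10) with the cDNA kit. Its Direct RNA call was lost without Day4 replicate 1 (2.61) or Day4 replicate 2 (3.02). The gene called lower, named after its values were seen, was the cholesterol transporter gene Abcg1 (−2.09, SE 0.48, adjusted p = 0.00038 with DESeq2). Of 27 other liver-type plasma protein genes, Direct RNA assessed 1 and cDNA 2, and both in cDNA were called lower, with none higher in either kit. These were Apoc1, given above, and Fetub, which was named after its values were seen (−4.63, SE 1.24, adjusted p = 0.0032 with DESeq2 in cDNA). Alb, the albumin gene next to Afp, had 1 read in the 8 libraries, and Apoa4, near Apoa1 and also named after its values were seen, had 0 and 0 in Direct RNA Undiff, 6 and 7 at Day4, 0 and 0 in cDNA Undiff and 2 and 8 at cDNA Day4.

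Of the endocytic partners of cubilin and amnionless, 2 of 11 assessed were called higher in Direct RNA, and 1 of 10 was called higher and 1 lower in cDNA. Dab2, the adaptor that links this receptor to clathrin, had 1 and 7 reads in Direct RNA Undiff, 30 and 33 at Day4, 1 and 8 in cDNA Undiff and 30 and 93 at cDNA Day4. DESeq2 called Dab2 higher with both kits (3.20, SE 0.82, adjusted p = 0.0019, and 3.06, SE 0.82, adjusted p = 0.0035). The Dab2 call was lost without Direct RNA Undiff replicate 1 (2.66), Undiff replicate 2 (3.55) or Day4 replicate 1 (2.27), and without each cDNA library in turn (2.42 to 3.65). The other called genes, named after their values were seen, were Rab11a, a recycling endosome GTPase gene, higher in Direct RNA (1.19, SE 0.41, adjusted p = 0.036 with DESeq2), and Cltc, the clathrin heavy chain gene, lower in cDNA (−2.06, SE 0.52, adjusted p = 0.0015). Lrp2, the megalin gene and large partner of cubilin, had 2 and 11 reads, 5 and 4, 2 and 7, and 1 and 4 in the same order of groups. Among iron genes, partners of transferrin, none of 8 assessed was called in Direct RNA, and 1, Ftl1, was called lower in cDNA (−1.07, SE 0.38, adjusted p = 0.0495 with DESeq2), and it was named after its values were seen.

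Factors that drive endoderm genes were uneven. Of the endoderm transcription factors, 3 of 5 assessed were called higher and 1 lower in Direct RNA, and 3 of 6 higher and 1 lower in cDNA, beside the same shares of all genes as given for the retinol list. The 3 called higher had 0 to 4 reads in each Undiff library and could be assessed only through Day4, so these counts too are partly set by the filter. Gata6 had 0 reads in all 4 Undiff libraries and 121 and 245 reads at Day4 in Direct RNA and 62 and 155 in cDNA. Gata6 rose by 8.13 (SE 1.04) and 6.83 (SE 1.16), Gata4 by 6.07 (SE 0.78) and 5.95 (SE 1.04), and Nr2f2 by 7.38 (SE 1.08) and 9.14 (SE 0.70), on the log2 scale of DESeq2, each called whichever library was left out, at 6.00 to 7.54 and 6.52 to 9.30 for Nr2f2, 6.73 to 8.18 and 5.50 to 6.46 for Gata6, and 5.35 to 6.30 and 5.23 to 5.86 for Gata4. With a replicate block DESeq2 did not call Gata6 with either kit (1.67, adjusted p = 0.83, and 1.57, adjusted p = 0.80) or Nr2f2 in Direct RNA (1.67, adjusted p = 0.83). Gata4, Gata6 and Nr2f2 also act in mesoderm, and 10 mesenchyme and mesoderm markers were assessed with each kit, of which Direct RNA called 8 higher and cDNA 7. Of these, Col3a1, Col1a2 and Hand2 had 0 reads, Pdgfrb and Kdr 0 or 1, and Col1a1 1 or 2 in each Undiff library, so the same limit holds for that count. With a replicate block DESeq2 did not call Col3a1, Col1a2 or Hand2 with either kit (1.68, 1.67 and 1.66 in Direct RNA, 1.77, 1.75 and 1.74 in cDNA). Nr5a2 fell by 3.39 (SE 1.02) and 2.97 (SE 1.05), and lost the call whichever library was left out (−2.62 to −3.68 in Direct RNA, −2.25 to −2.76 in cDNA). Hnf4a, a factor of visceral endoderm and liver, had 0 or 1 read in every library. Foxa2 had 1 and 2 reads in Direct RNA Undiff, 0 and 9 at Day4, 0 and 0 in cDNA Undiff and 0 and 6 at cDNA Day4, all its Day4 reads being in replicate 2. In the same order Foxa1 had 0 and 2, 0 and 15, 0 and 1, and 7 and 28 reads, Sox17 had 1 and 1, 6 and 12, 0 and 0, and 1 and 2, and Sox7 had 0 and 1, 4 and 8, 0 and 1, and 6 and 14. DESeq2 called none of Hnf4a, Foxa2, Foxa1, Sox17 and Sox7, but with each kit most of them were below the mean normalised count needed for a call.

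Other markers of visceral endoderm were mixed as well, with 2 of 7 assessed called higher and 1 lower in Direct RNA, and 2 of 6 higher and 1 lower in cDNA. Besides Dab2, S100g, a calcium-binding protein gene, had 0 reads in Direct RNA Undiff, 5 and 23 at Day4, 0 and 1 in cDNA Undiff and 38 and 100 at cDNA Day4. S100g rose by 4.30 (SE 1.30) and 5.42 (SE 1.08), its Direct RNA call being lost whichever of the 4 libraries was left out (2.61 to 3.85). Rhox5, a homeobox gene, fell by 2.76 (SE 0.83) and 3.37 (SE 1.07), and lost the call without Undiff replicate 1 or Undiff replicate 2 with each kit (−2.82 and −2.47 in Direct RNA, −3.19 and −2.75 in cDNA). Of parietal endoderm markers, which label the other extraembryonic endoderm, 7 of the 12 assessed in Direct RNA were called higher, as were 4 of the 11 assessed in cDNA. Plat and Pdgfra had 0 to 2 reads in each Undiff library and could be assessed only through Day4, so these counts are partly set by the filter as well. Plat, the tissue plasminogen activator gene, rose by 6.26 (SE 0.85) and 7.55 (SE 1.12), and Serpinh1, a collagen chaperone gene, by 4.94 (SE 0.32) and 5.01 (SE 0.41). Pdgfra, a growth factor receptor gene, rose by 5.17 (SE 1.22) and 4.14 (SE 1.18), and Sparc, a matrix protein gene, by 1.23 (SE 0.33) and 2.02 (SE 0.39). Lama1, Lamc1 and Nid1 of the same list, named after their values were seen, had lower mean CPM at Day4 with both kits. In Direct RNA they went from 14.6 to 8.27, 137 to 102 and 72.3 to 38.1. In cDNA they went from 3.02 to 2.34, 18.2 to 17.0 and 9.87 to 7.29. None of the list was called lower. Plat lost its cDNA call with a replicate block (1.76, adjusted p = 0.73 with DESeq2), and Pdgfra its calls with both kits (1.45 and 3.57). Pdgfra lost its call without Undiff replicate 2 or Day4 replicate 2 with each kit (3.86 and 3.23 in Direct RNA, 2.80 and 1.99 in cDNA), and Sparc in Direct RNA without Undiff replicate 2 (0.88) or Day4 replicate 1 (0.99). Of definitive endoderm markers 1 of 2 was called higher and 1 lower in Direct RNA, and 1 of 4 higher and 1 lower in cDNA. The members are described by name and not as a measure of visceral endoderm.

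The remaining lists were counted in the same way. All 10 pluripotency genes were called lower with both kits. Of neural markers 2 of 4 assessed were called lower in Direct RNA, and 1 of 6 was called higher and 2 lower in cDNA. Of trophoblast markers, 1 of 3 was called higher and 1 lower in Direct RNA, and 1 of 3 higher in cDNA. The gene higher with both kits was Krt18, a keratin gene, and its call was lost without Direct RNA Undiff replicate 1 (1.71) or Day4 replicate 2 (1.75) and without each cDNA library in turn (0.89 to 1.39). Among other genes named by the rule, cDNA calls were lost for Tubb3, a neural tubulin gene, without Undiff replicate 2 (−1.76) or Day4 replicate 2 (−2.06), for Utf1, a pluripotency gene, without Undiff replicate 2 (−4.16), and for Twist1, a mesoderm factor gene, without Day4 replicate 2 (3.48). In Direct RNA, the definitive endoderm markers Nepn, without Undiff replicate 2 (3.66) or Day4 replicate 2 (2.61), and Epcam, without Undiff replicate 2 (−1.93), lost theirs. The 1 macrophage marker assessed, Cd68, was called lower in cDNA and not in Direct RNA.

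**Figure D4:**
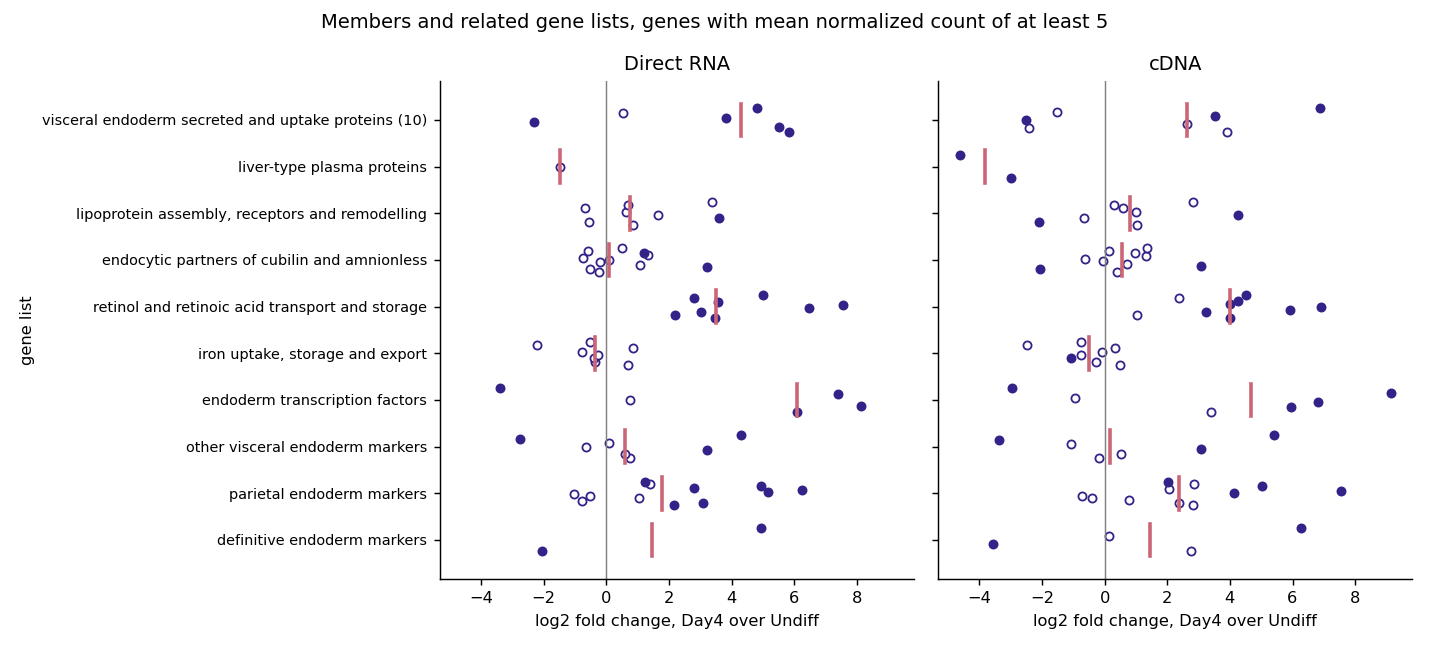
Log2 fold change of Day4 over Undiff (DESeq2, shrunken) for the genes of 10 lists with a mean normalised count of at least 5, in Direct RNA (left) and cDNA (right), with called genes filled and the median of those genes as a red line. The retinol list lies wholly right of 0 with both kits, while the liver-type list holds 1 and 2 genes, left of 0.

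The genes most like the members across libraries were sought among 9119 genes whose mean count reached 5 reads on both platforms. The profile was the mean over Afp, Ttr, Apoa1, Apoe and Rbp4 of log2(CPM + 1), centred within each kit. Apoe fell while the others rose, so the profile mainly follows the state, and the genes nearest to it run opposite to Apoe. The nearest were Ets1 (Pearson r = 0.998), Slc16a3 (0.998), Nrp1 (0.997), Rarb (0.996) and Tcf12 (0.995), over 8 libraries. These libraries differ in depth and state, and all genes share those differences. Rarb, a retinoic acid receptor gene, had 0 and 0 reads in Direct RNA Undiff, 117 and 230 at Day4, 1 and 0 in cDNA Undiff and 136 and 257 at cDNA Day4. Nrp1, a receptor of vessels and axons, had 0 and 0, 27 and 47, 1 and 0, and 63 and 239 reads in the same order. In cDNA, the calls of Ets1 and Slc16a3 were lost without Undiff replicate 2 (2.51 and 1.13), Day4 replicate 1 (3.09 and 1.63) or Day4 replicate 2 (2.94 and 1.47). The correlations are a description.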

How the data were processed

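The authors counted reads per gene symbol with htseq-count (HTSeq) from minimap2 alignments to mm10, with secondary alignments left out, and deposited whole-number counts for each of the 8 libraries. The Direct RNA counts used strand. The strand setting of the cDNA counts is not given in the sources used here. Reads on no gene (38.1 to 45.0% of Direct RNA and 40.6 to 61.7% of cDNA reads) were left out. All genes were fitted with DESeq2 1.42.0 (R 4.3.3) with the study's settings: shrunken fold changes, no Cook's cutoff, no independent filtering, and a call at an adjusted p of at most 0.05 (Benjamini-Hochberg over all genes), an absolute log2 fold change of 1 or more and a mean normalised count of 5 or more. States were compared within each kit, kits with state in the model, and the interaction without shrinkage on adjusted p alone. The DESeq2 fit was tested on simulated data. Alternatives were edgeR 4.0.16 (quasi-likelihood, TMM), no shrinkage, default filtering, at least 10 reads summed, a replicate block and leaving out each library. Annotation was GENCODE vM21 (GRCm38). From each related list at most 4 genes were named by rule, those with the largest mean log2 fold change among genes called in 1 direction with both kits. A gene that this rule names in the retinol list is not reported here. The 5 genes most like the members were named by Pearson correlation. All other genes were named outside these rules, with their values seen. The members and lists were chosen with earlier results of these data known.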

Additional observations from a re-analysis of the deposited data

How the results depend on the processing

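The members called in Direct RNA numbered 4 higher (range 1 to 4 when leaving out each library) and 1 lower (0 to 1). In cDNA, 2 higher became 4 and 1 lower became 2 with edgeR, with and without a replicate block. Between kits, 2 higher ranged from 1 to 3 and 1 lower from 0 to 1 without 1 library, and the 1 lower became 0 with the replicate block. Single values of the members, the genes picked by rule and the genes most like the members kept their direction in 949 of 960 recomputations, though some calls were lost. Genes picked by rule were taken for calls in 1 direction with both kits, and the genes most like the members for a like profile. Several, such as Afp, had 0 reads in Undiff. The kept directions were therefore partly set in advance. Without 1 library, the Direct RNA value of Trf was −1.76 to 1.32 and its kit difference −1.42 to 0.65, in both turning without Direct RNA Day4 replicate 1, and it was −0.11 in Direct RNA with edgeR and the replicate block. The interaction, never called for a member, ranged from −4.19 to 2.46 for Apoa1 (turning without cDNA Undiff replicate 1), from −0.74 to 0.21 for Apoe, from −1.56 to 0.92 for Rbp4 and from −6.14 to 2.99 for Trf. The turned values were 0.21 (without Direct RNA Undiff replicate 1), 0.08 (Direct RNA Day4 replicate 2) and 0.12 (cDNA Undiff replicate 2) for Apoe and 0.32 (Direct RNA Undiff replicate 2), 0.10 (Direct RNA Day4 replicate 1) and 0.92 (cDNA Undiff replicate 1) for Rbp4.

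The replicate numbers are only shared numbers between states (correlation of deviations 0.21 in Direct RNA and 0.50 in cDNA over 1395 genes). With the replicate block, DESeq2 called 843 genes in place of 1660 in Direct RNA and 1375 in place of 1842 in cDNA. It lost Afp in Direct RNA (1.64, adjusted p = 0.84) and Ttr in cDNA (1.75, adjusted p = 0.73) and gained Apoa1 in cDNA (4.16, adjusted p = 7.2e-05). The estimated dispersion went from 0.271 to 6.69 for Afp and from 0.180 to 6.69 for Ttr in those fits, and in all 13 single-gene calls among these genes were lost in Direct RNA and 9 in cDNA. With edgeR and the same block, added after seeing the data, Afp (8.05, adjusted p = 1.3e-12) and Ttr (9.42, adjusted p = 1.6e-19) were called. Between kits the block lost Afp (−1.94, adjusted p = 0.065) and Ttr (1.23, adjusted p = 0.11) and gained Apoa1 (1.39, adjusted p = 0.021). Crossing the Day4 numbers between kits (their deviations correlate at −0.42), also added after seeing the data, gave 5081 genes, where the numbered block gave 5049 and no block 5344, with 2 members higher (Rbp4 and Apoa1, not Ttr) and 1 lower. Over all genes edgeR called 3257 and 3348 between states and 14 in the interaction in place of 2. Leaving out 1 library left 393 to 797 calls in Direct RNA and 709 to 1020 in cDNA, with 1 group then holding a lone library whose spread is taken from the other. The cause of these shifts was not tested. Depth limits Apob, Cubn, Apom, Trf and Amn, with under 20 reads a library.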
